A study of Bos taurus with 14 samples.

Results

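The 7 subunits of respiratory complex I that are encoded in the mitochondrial genome (mtDNA), ND1, ND2, ND3, ND4, ND4L, ND5 and ND6, were described in the liver of newborn calves. They are 7 of the 27607 Ensembl genes in the deposited count table, and all 7 were found by their identifiers. Their names came from the study's list of genes that differed between the maternal diets, so the diet contrast chose them and is given here as a description with no test.

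Liver was collected 30 h after birth from 14 female calves of crossbred Angus-based heifers bred to 1 bull. The 7 CON dams received a basal diet. The 7 VTM dams received the same basal diet with a premix of vitamins and minerals at 113 g per heifer per day, given from 60 days before breeding to calving. All calves were fed colostrum replacer and milk replacer, and each calf gave 1 whole-tissue library, so the cells that carry a transcript were not separated. CON calf 19 and VTM calf 10 had a low rate of unique alignment and were left out by the study. Both are included here where stated.

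Complex I takes electrons from NADH, passes them to ubiquinone and pumps protons across the inner mitochondrial membrane. Its mtDNA-encoded subunits form the core of the arm that lies within that membrane, and the remaining subunits are encoded in the nucleus. ND2, ND4 and ND5 are the antiporter-like subunits that move protons. ND1 lies where the membrane arm meets the peripheral arm, beside the ubiquinone site, and ND3, ND4L and ND6 are small subunits that join ND1 to the antiporter-like subunits. Mitochondrial genes are transcribed from either strand as long precursors that are cut into single messages. ND6 is the sole protein encoded on the light strand, and the other 6 genes here belong to the heavy strand. ND4L and ND4 remain on 1 shared message.

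Total counts lay between 13382264 and 20125409 per calf, and the number of genes detected between 12212 and 16666. VTM calf 40 stood apart with 12212 detected genes and 318 genes at 1 to 9 counts. CON calf 31 followed with 14210 and 1531, CON calf 19 with 14528 and 1265, and CON calf 25 with 15110 and 2257, whereas the other 10 libraries had 16168 or more detected genes and 2719 to 3349 genes at 1 to 9 counts. Of the hepatocyte markers AHSG and TTR, which encode proteins that liver secretes into plasma, AHSG was at 4281 CPM or more in every library and TTR at 109.2 CPM or more. CPM are counts scaled to a common library size, with TMM factors over the 14 calves. The factor was 0.698 in CON calf 31 and 0.855 in CON calf 25, against 0.978 to 1.129 in the other calves. A lower factor raises all CPM of a calf.

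The 7 genes together took between 0.352% of all counts, in CON calf 37, and 2.99%, in CON calf 31 (95% Wilson interval 2.982 to 2.998, counting error only). In 11 of the 14 calves their summed level was between 3160 and 6278 CPM. The other 3 were CON calf 19 at 10329 CPM, CON calf 25 at 18459 CPM and CON calf 31 at 42858 CPM. These 3 calves, all CON, stood above all 7 VTM calves, and the remaining 4 CON calves lay within or below the VTM range of 3669 to 6278 CPM. In whole tissue, fewer cells of a type and less RNA per cell cannot be told apart.

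**Figure D1:**
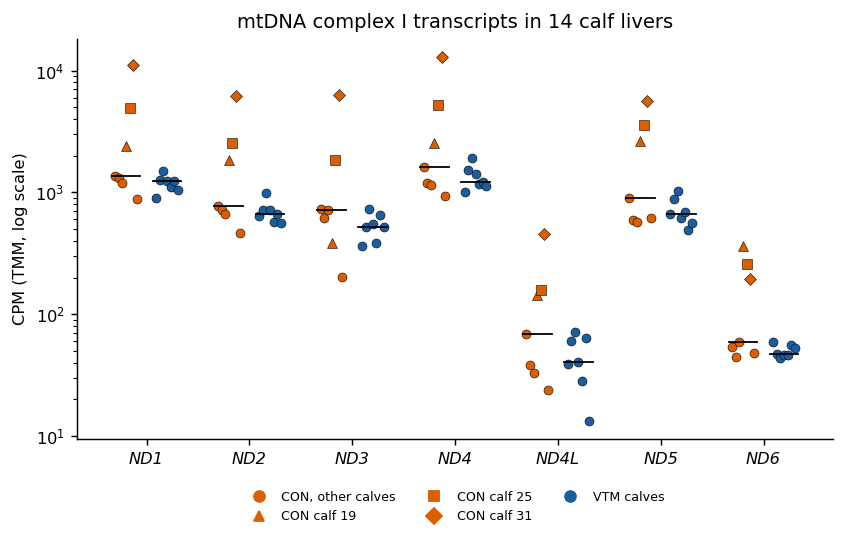
Level of each subunit in CPM (log axis) in every calf, with 7 CON calves in orange, 7 VTM calves in blue and the median of each group as a line. CON calves 25 and 31 lie above all VTM calves for all 7 genes, and CON calf 19 does so for each gene except ND3.

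ND1 (ENSBTAG00000043558) was at 875, 1352 and 11090 CPM in CON (lowest, median and highest of 7 calves) and at 896, 1236 and 1494 CPM in VTM. CON calf 25 was at 4911 CPM and CON calf 19 at 2401 CPM. The 4 other CON calves, at 875 to 1352 CPM, overlapped the VTM calves.

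The proton-pumping subunits had the same arrangement. ND4 (ENSBTAG00000043577) was at 932, 1624 and 12937 CPM in CON and at 1002, 1224 and 1915 CPM in VTM. ND5 (ENSBTAG00000043563) was at 567, 897 and 5639 CPM in CON and at 494, 671 and 1023 CPM in VTM. In ND2 (ENSBTAG00000043571) the CON calves spanned 460 to 6192 CPM around a median of 767 CPM, and the VTM calves 557 to 995 CPM around 665 CPM. For these 3 genes CON calf 31 was highest, CON calf 25 was next and CON calf 19 was the third of the 14 calves.

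The small joining subunits differed more from each other. ND3 (ENSBTAG00000043568), a short membrane protein next to ND1, was at 202, 711 and 6351 CPM in CON and at 364, 520 and 735 CPM in VTM. CON calf 19 was at 383 CPM in ND3, within the VTM range, although it was the third of the 14 calves in ND1, ND2, ND4 and ND5. ND4L (ENSBTAG00000043559), the smallest of the 7, was at 23.9, 69.0 and 454 CPM in CON and at 13.3, 40.7 and 72.1 CPM in VTM. The lowest ND4L value belonged to VTM calf 40, where it rested on 220 counts, in the library with the fewest detected genes.

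ND6 (ENSBTAG00000043546) ordered the 3 high calves the other way. It was at 364 CPM in CON calf 19, 260 CPM in CON calf 25 and 194 CPM in CON calf 31, whereas the heavy-strand genes summed to 9965, 18199 and 42663 CPM in the same calves. The other 4 CON calves were at 44.5 to 58.9 CPM and the 7 VTM calves at 44.1 to 59.1 CPM, so these 11 calves overlapped in full. In the 11 calves the coefficient of variation of ND6 was 11.1%. For the heavy-strand genes it ran from 16.1% in ND1 to 45.0% in ND4L.

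Relative to the median of those 11 calves, CON calf 31 was 8.97-fold higher in ND1, 10.8-fold in ND4, 9.10-fold in ND5, 11.6-fold in ND3 and 4.04-fold in ND6. CON calf 25 was 3.34-fold higher in ND3 and 5.73-fold in ND5. In CON calf 19 the ratio ran from 0.697 in ND3 to 7.56 in ND6, the widest spread among the 7 genes of the 3 calves. The heavy-strand genes of CON calf 31 thus stood 8.97 to 11.6 times above the median, a narrow band, and those of CON calf 19 0.697 to 4.24 times.

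The 2 mitochondrial rRNA genes, which encode the RNA of the mitochondrial ribosome, summed to 4728 CPM in CON calf 19. They were at 2564 CPM in CON calf 31, 1360 CPM in CON calf 25 and between 236 and 824 CPM in the other 11 calves. Their part in the ND6 values was not tested. The 5 stellate cell and fibroblast markers summed to 1504 CPM in CON calf 31, 1734 CPM in CON calf 25 and 1135 CPM in CON calf 19, inside the range of 802 to 3453 CPM of the other 11. The 2 endothelial markers summed to 40.4, 32.2 and 21.1 CPM in these calves, within the 9.23 to 43.9 CPM of the other 11, and the 2 cholangiocyte markers to 52.5, 61.0 and 49.4 CPM, within 24.0 to 96.9 CPM. Single markers lay at the ends of the range behind these sums. DCN, a matrix proteoglycan of the stellate list, was at 338 CPM in CON calf 31, the highest of the 14, and at 111 CPM in CON calf 19, the lowest, and the endothelial receptor NOTCH4 was highest in CON calf 31, at 17.1 CPM. The 2 hepatocyte markers summed to 6761 CPM in CON calf 31, 5804 CPM in CON calf 25 and 4989 CPM in CON calf 19. The other 11 were at 6008 to 16262 CPM, so CON calves 25 and 19 lay below them. TTR was at 2228 CPM in CON calf 31, the highest of the 14, at 1523 CPM in CON calf 25 and at 109.2 CPM in CON calf 19, the lowest. AHSG was at 4533, 4281 and 4880 CPM in these calves, below the median of 7007 CPM over the 14. Its value in CON calf 25 was the lowest of the range of 4281 to 15755 CPM. The part of these cell types in the levels of the 7 genes was not tested. The study had chosen all these markers for its lists on the same calves, and further endothelial, cholangiocyte and hepatocyte markers had no name to find them by. Erythroid, leukocyte, muscle and kidney markers were not analysed here.

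With edgeR over the 12 calves that the study kept, the log2 fold change of VTM against CON was -1.57 (standard error 0.56) for ND1, -1.46 (0.56) for ND2, -1.71 (0.64) for ND3, -1.56 (0.59) for ND4, -1.60 (0.67) for ND4L, -1.56 (0.56) for ND5 and -1.13 (0.43) for ND6. The median was -1.56 over the 7 genes and -0.02 over all 13307 genes tested. All 7 were past the study's threshold, which asks for a change of 0.5 or more on the log2 scale and an unadjusted p no higher than 0.05, where 2.85% of all genes tested were past it in this direction. DESeq2 is the method by which the study had listed the 7 genes, at this threshold and on these 12 calves. That all 7 were past it with DESeq2, where 3.53% of genes were, was thus fixed in advance. The edgeR count, on the same calves, was largely set by that choice too. ND6 had the smallest fold change and ND4L the largest standard error, and no mtDNA-encoded complex I gene lay outside the threshold. Mean levels were 1170 ± 206 CPM in VTM and 3456 ± 4030 CPM in CON for ND1 (SD, n = 6 each). For ND6 the means were 110 ± 93.1 CPM in CON and 50.7 ± 6.04 CPM in VTM (SD, n = 6 each). In each of the 7 genes the SD of the CON calves was larger than the difference of the group means. In no gene was every VTM calf below every CON calf, an arrangement that 0.128% of genes tested had.

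Cell type markers moved in the same contrast. They could be named only from the study's own lists on these calves, so passing the threshold was largely set by that choice. Named were 5 of 5 stellate and fibroblast, 2 of 5 endothelial, 2 of 3 cholangiocyte and 2 of 6 hepatocyte markers. Of the stellate and fibroblast markers 4 of 5 were past the threshold with lower values in VTM (COL1A1, COL1A2, DCN and VIM), and LRAT, which esterifies retinol, was past it with higher values, with a median log2 fold change of -0.86 over the 5. Both named endothelial markers (median -0.88) and both named cholangiocyte markers (median -0.78) were past it with lower values in VTM. Of all genes tested, 2.85% were past it in this direction and 0.864% in the other. AHSG was past it with higher values, at 0.67, and TTR was at -0.99 and not past it. Without CON calf 31 all 5 stellate markers, with LRAT again higher in VTM at 0.79, 1 endothelial and 1 cholangiocyte marker were past the threshold. None of the 7 complex I genes was. In that fit 286 of 13467 genes were past it in either direction, and 1.5% of genes with lower values in VTM. Markers and complex I genes alike came from the study's lists, so these counts are a description. The part of these cell types in the fold changes was not tested.

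Without CON calf 31 the median log2 fold change of the 7 genes was -0.64. None of the 7 was then past the threshold or below an unadjusted p of 0.05, with either edgeR or DESeq2, against 1.5% of genes past it in this direction with edgeR and 1.77% with DESeq2. Without CON calf 25 the median was -1.44, and 5 of the 7 were past the threshold, ND4L and ND6 not, against 1.7% of genes. Without VTM calf 4, 22, 28 or 40 it was 6 of the 7, ND4L not, against 1.92%, 2.72%, 2.34% and 3.28% of genes in turn. In the other 6 fits without a single calf all 7 were past it, against 4.05% of genes without CON calf 1, 2.83% without CON calf 7, 3.26% without CON calf 13, 5.12% without CON calf 37, 2.83% without VTM calf 16 and 2.74% without VTM calf 34. Leaving out CON calves 25 and 31 together, a choice made after the data were seen, gave a median of 0.03, with values between -0.07 in ND3 and 0.11 in ND4, and 1.25% of genes past the threshold in this direction. Over all 14 calves the 7 genes lay between -1.44 in ND2 and -1.56 in ND5, where 1.62% of genes were past the threshold. ND6 moved from -1.13 to -1.54 with the 2 added calves.

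**Figure D2:**
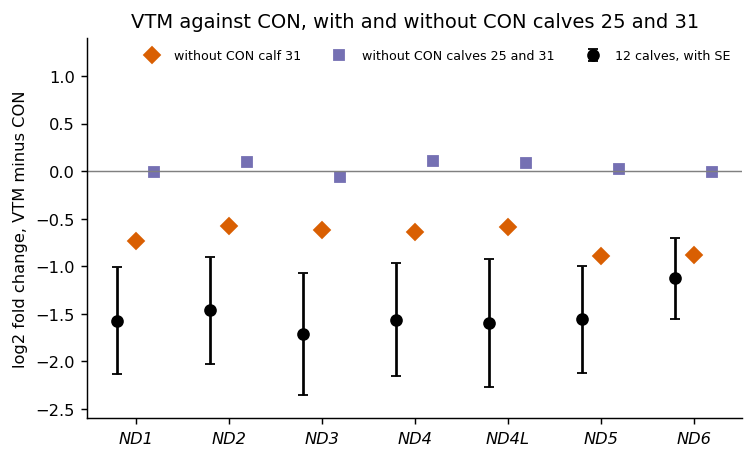
Log2 fold change of VTM against CON for each subunit over the 12 calves kept by the study (black, bars are standard errors), without CON calf 31 (orange) and without CON calves 25 and 31 (purple). The values of -1.46 to -1.71 for the heavy-strand genes and -1.13 for ND6 come to between -0.07 and 0.11 once the 2 CON calves are left out.

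To compare the subunits with each other, counts were divided by gene length, taken from RefSeq (ARS-UCD2.0), which runs from 297 bases for ND4L to 1821 bases for ND5. The level of each gene is given as its share of the per-length total of the 7 genes within a calf, which does not depend on library size. ND3 had the largest median share over the 14 calves, 30.7% (range 11.2 to 38.8), followed by ND1 with 24.7% (22.6 to 29.2) and ND4 with 18.9% (15.7 to 21.6). ND2 had 12.8% (11.8 to 17.9), ND5 7.999% (5.11 to 14.6), ND4L 2.89% (1.02 to 4.94) and ND6 2.03% (0.732 to 6.99). The light-strand gene was thus at the bottom of the order by the median, and the longest gene, ND5, was below the other antiporter-like subunits ND2 and ND4.

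Neighbours in this order were compared within calves by an exact sign-flip permutation test, 2-sided, with Benjamini-Hochberg adjustment over the 6 pairs. ND1 exceeded ND4 in 14 of 14 calves, by a factor of 1.32 (mean log2 ratio 0.40 ± 0.14, SD, n = 14; adjusted exact p = 0.000183). ND4 exceeded ND2 by 1.43-fold, ND2 exceeded ND5 by 1.66-fold and ND5 exceeded ND4L by 2.80-fold, each in 14 of 14 calves with the same adjusted p, which comes from the smallest p that 14 calves allow, 0.000122. The full order of medians was found in 9 of 14 calves, and the ends of the order were less fixed. ND3 exceeded ND1 in 11 of 14 calves, with a mean log2 ratio of 0.18 ± 0.53 (SD, n = 14; adjusted exact p = 0.221), and the ratio was -1.18 in CON calf 19 and 0.73 in CON calf 13. Without CON calf 19 it was 0.29, at an adjusted exact permutation p of 0.0234. ND4L exceeded ND6 in 10 of 14 calves, with a mean log2 ratio of 0.49 ± 0.86 (SD, n = 14; adjusted exact p = 0.0623), from -1.15 in VTM calf 40 to 2.05 in CON calf 31. Without VTM calf 40 that mean was 0.62, at an adjusted exact permutation p of 0.0129, and without CON calf 19 it was 0.57, at 0.0322. The other 12 fits without a single calf were not past the threshold. Without CON calf 31 the mean was 0.37, at an adjusted exact permutation p of 0.125. Over the 12 calves that the study kept it was 0.51, at 0.0615.

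**Figure D3:**
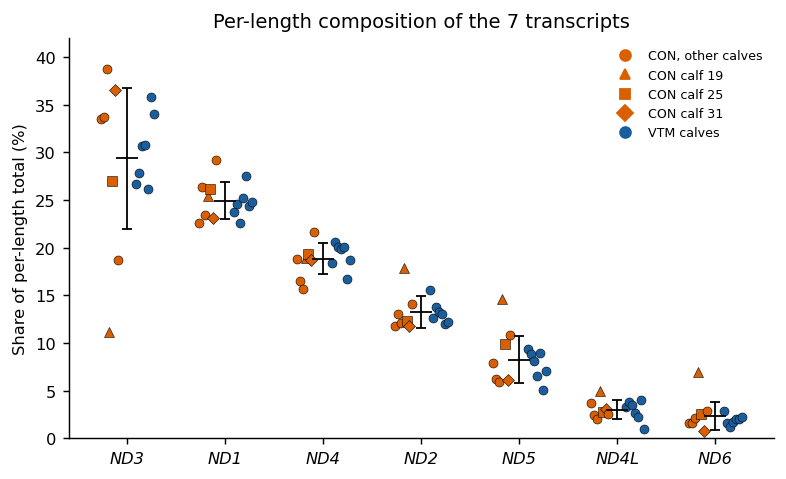
Share of each subunit in the per-length total of the 7 transcripts (percent), in order of the median, for 7 CON calves (orange) and 7 VTM calves (blue), with mean and SD over the 14 calves in black. The order from ND1 to ND5 holds in every calf, while CON calf 19 lies apart with ND3 at 11.2% and ND6 at 6.99%.

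Gene counting touches the 2 lowest positions. A read pair that overlaps 2 genes on the same strand is assigned to neither, and ND4L shares 7 of its 297 bases with ND4 on their common message, so its share is a lower reading. ND4L stood at a mean log2 ratio of -2.73 ± 0.55 to ND4 (SD, n = 14), and at -4.20 in VTM calf 40. ND6 shares 17 of its 528 bases with ND5 on the opposite strand, and the strand setting used for counting is not given in the sources used here, so reads from the opposite strand cannot be told apart from ND6. Short genes can also collect more read pairs per base where a fragment reaches past the gene, and the fragment size, which is not given, bears on ND3. Per the labels the libraries came from polyadenylated RNA, so the levels are those of RNA captured by its tail of A bases. The tails of these transcripts were not measured, and their part in the ND6 values here and below was not tested.

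The shares of the diets overlapped. Over the 12 calves ND3 was at 30.7 ± 3.83% in VTM and 31.4 ± 7.37% in CON, ND1 at 24.7 ± 1.64% and 25.2 ± 2.57%, and ND6 at 2.01 ± 0.547% and 1.92 ± 0.769% (SD, n = 6 each). For the other 4 genes, too, the ranges of the groups overlapped. These values are given with no test, since the diet contrast chose the genes.

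Individual calves departed from the median composition. With each gene's per-length log2 level set against the mean of the 7 genes in its calf, CON calf 19 departed from the median calf by -1.88 in ND3 and by 1.398 in ND6, with a mean absolute departure of 0.71. CON calf 31 was at -1.25 in ND6 with a mean absolute departure of 0.36, and VTM calf 40 at -1.31 in ND4L with 0.33. CON calf 37 was at -0.88 in ND3. CON calf 25, whose summed level was second of the 14, had a mean absolute departure of 0.17, and VTM calf 22 the smallest, 0.10. ND2 varied least among calves on this scale, with an SD of 0.10, and ND6 and ND3 most, with 0.61 each.

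**Figure D4:**
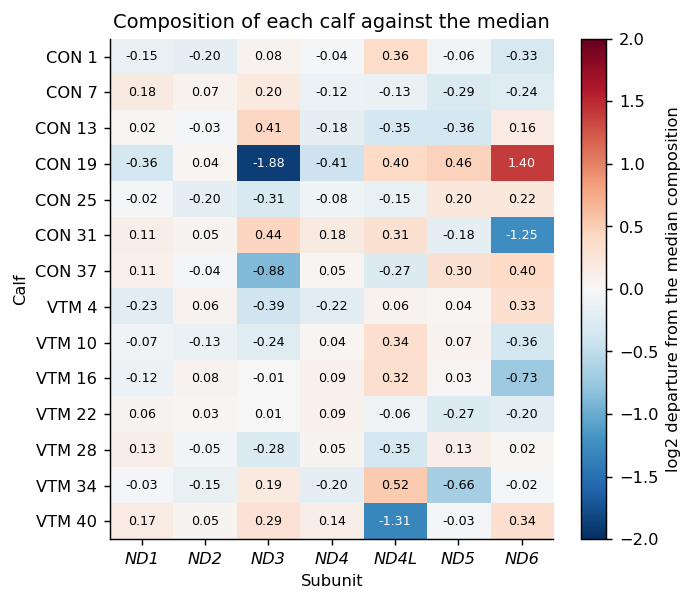
Departure of each subunit (columns) in each calf (rows) from the median composition, in log2 units of the per-length level after subtracting the calf's mean over the 7 genes, with red above and blue below. The largest departures are ND3 at -1.88 and ND6 at 1.398 in CON calf 19, ND4L at -1.31 in VTM calf 40 and ND6 at -1.25 in CON calf 31.

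ND6 was set against the 6 heavy-strand subunits in each calf. Per length, the ND6 level was 13.6% of the heavy-strand level in the median calf. It was 5.04% in CON calf 31, 15.8% in CON calf 25 and 40.4% in CON calf 19, and 7.82 to 18.1% in the other 11. The mean log2 ratio of ND6 to the average heavy-strand gene was -2.64 ± 0.71 (SD, n = 14), below 0 in 14 of 14 calves (exact sign-flip permutation test, 2-sided, p = 0.000122, the smallest that 14 calves allow). Leaving out ND4L from the heavy-strand genes gave -3.07, and without CON calves 19, 25 and 31 the mean was -2.68 ± 0.41 (SD, n = 11).

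This ratio overlapped between the diets. It was -2.67 ± 0.46 in VTM and -2.82 ± 0.70 in CON over the 12 calves (SD, n = 6 each), a difference of 0.15. The added libraries were CON calf 19, at -0.98, and VTM calf 10, at -3.03, and over all 14 calves the difference became -0.16.

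**Figure D5:**
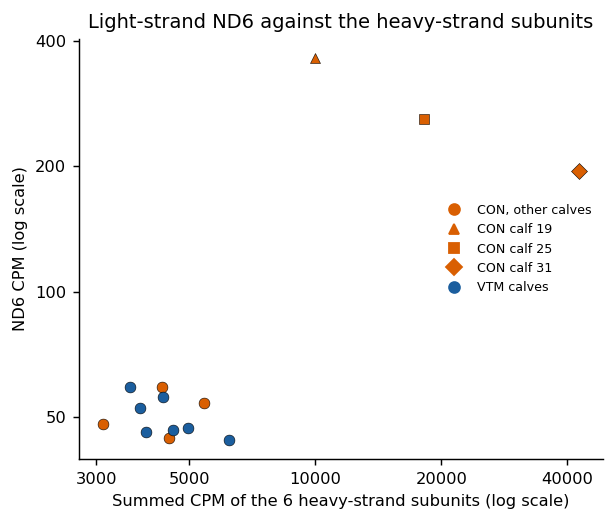
ND6 level against the summed level of the 6 heavy-strand subunits, both in CPM on log axes, with 1 point per calf (CON orange, VTM blue). The other 11 calves form a flat band with ND6 at 44.1 to 59.1 CPM, and CON calves 19, 25 and 31 stand apart, with ND6 at 364, 260 and 194 CPM as the heavy-strand sum goes up.

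Relations across calves were computed over all 14, and, because 3 calves stood apart, again within the other 11, a choice made after the data were seen. Permutation tests used 100000 draws, with adjustment over the 4 relations. All genes in these relations were named from the study's own lists on these calves, and the permutation p does not allow for that choice. For ND6 against the heavy-strand subunits, Pearson r was 0.77 over the 14 calves (adjusted permutation p = 0.0119) and Spearman rho 0.35 (adjusted permutation p = 0.215). It rested on the 3 calves. Within the 11, r was -0.20 (adjusted permutation p = 0.555) and rho -0.30 (adjusted permutation p = 0.369), and r was -0.11 without VTM calf 16 and CON calf 37, the calves farthest from the median.

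The log2 ratio of ND6 to the heavy-strand genes against their level had r of -0.37 over the 14 calves, not past the threshold (adjusted permutation p = 0.193), and rho of -0.49 (adjusted permutation p = 0.104). Without CON calf 31 r was 0.16, and without CON calves 25 and 31 r was 0.15 and rho -0.50. Without CON calf 19 r was -0.68 (adjusted permutation p = 0.0217). Within the 11 calves r was -0.93 (adjusted permutation p = 0.00024) and rho -0.95 (adjusted permutation p = 8e-05), and r was -0.86 without VTM calf 16 and CON calf 37. The heavy-strand level enters both sides of this relation.

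The heavy-strand subunits went with the other 5 named protein genes of mtDNA, COX1, COX2, COX3, CYTB and ATP8, which encode subunits of cytochrome c oxidase, of complex III and of ATP synthase. Over the 14 calves r was 0.98 (adjusted permutation p = 4e-05, which comes from the smallest p these draws can give, 1e-05) and rho was 0.98 (same p). In the 11 calves r was 0.92 (adjusted permutation p = 0.00024) and rho was 0.97 (adjusted permutation p = 8e-05), with r of 0.91 without VTM calf 16 and CON calf 37. All 5, which the study had likewise listed, were past the threshold with lower values in VTM. ATP8 was near the floor, at 0.624 to 11.2 CPM with a median of 1.62 CPM, and shares 40 of its 201 bases with ATP6. The medians of the others ran from 2194 CPM in CYTB to 14162 CPM in COX1. The median log2 fold change of these 5 genes was -1.57 over the 12 calves and -0.65 without CON calf 31, beside -1.56 and -0.64 for the complex I subunits. The complex I subunits made up between 15.7% and 24.0% of the counts on the named mtDNA genes (12 protein and 5 RNA genes), with the highest share in CON calf 19.

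Among the 7 members, Pearson r of log2 CPM over the 14 calves, which share their library totals, ran from 0.48 between ND3 and ND6 to 0.99 between ND1 and ND4. Outside the 7, the genes whose log2 CPM was most like their summed level over the 14 calves were CYTB, with r of 0.99, and COX1, with r of 0.97. The next 3 had no name paired with their identifiers, the first of them ENSBTAG00000043584 with r of 0.96, and the 5 highest outside the named mtDNA genes had no name either. Whether any of these is an mtDNA gene, such as ATP6, which was not named, could thus not be told.

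Nuclear partners of the mtDNA-encoded subunits could be named only where the study had listed them, 7 of the 37 nuclear complex I subunits fixed for this comparison, so the other 30 were not analysed here. These were the iron-sulfur subunit NDUFS8 and the accessory subunits NDUFA2, NDUFA3, NDUFA8, NDUFA11, NDUFB7 and NDUFB10. All were chosen by the study in the same contrast, and 5 of the 7 were past the threshold with lower values in VTM. Their median log2 fold change was -0.66, against -0.02 over all genes. NDUFS8, the most abundant, had a mean of 278 ± 209 CPM in CON against 146 ± 28.5 CPM in VTM (SD, n = 6 each), and its log2 fold change was -0.94 (standard error 0.38). The others past the threshold were NDUFA11 at -0.75, NDUFB10 at -0.63, NDUFA8 at -0.57 and NDUFA2 at -0.51. NDUFA3 and NDUFB7, at -0.91 and -0.66, were not past it. Without CON calf 31 the median was -0.39 and none of the 7 was past the threshold with edgeR or DESeq2, with 1 below an unadjusted p of 0.05 in either. Left out singly, CON calf 25 gave 0 of the 7 past it, VTM calf 4 gave 1, VTM calf 28 gave 2, VTM calves 22 and 40 gave 3 each, VTM calf 34 gave 4 and VTM calf 16 gave 5. The count was 6 without CON calf 1 or 7 and 7 without CON calf 13 or 37, and the shares of all genes in these fits are those given above for the mtDNA-encoded genes. DESeq2, by which the study had listed them, gave 7, and all 14 calves gave 1.

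The nuclear subunits were high beside the mtDNA genes in 2 of the 3 high calves. Their summed level was 1598 CPM in CON calf 31 and 1155 CPM in CON calf 25, against 359 to 587 CPM in the 11 calves. CON calf 19 was at 260.5 CPM, the lowest of the 14, although its mtDNA-encoded subunits were the third highest. Over the 14 calves the mean levels of the mtDNA-encoded and nuclear subunits had r of 0.68 (adjusted permutation p = 0.0159) and rho of 0.63 (adjusted permutation p = 0.0384). This was no longer past the threshold without CON calf 25 (r of 0.60, adjusted permutation p = 0.0987), without CON calf 31 (0.38, adjusted permutation p = 0.266) or with no TMM (0.54, adjusted permutation p = 0.0652). Without CON calves 25 and 31 r was -0.32 and rho 0.41. Leaving out CON calf 19 alone gave r of 0.97. Over the 12 calves that the study kept, r was 0.97 (adjusted permutation p = 2e-05) and rho 0.94 (adjusted permutation p = 8e-05). Within the 11 calves r was 0.83 (adjusted permutation p = 0.00152) and rho 0.83 (adjusted permutation p = 0.00371), and r was 0.71 without VTM calf 16 and CON calf 37. All values in this relation carry the same library totals. Both sets of genes were listed by the study as differing between the diets on the same calves. A positive r was partly favoured by that choice, for which the permutation p does not allow.

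From the other lists, 1 complex I assembly factor of 18 had a name. NDUFAF3 had a mean of 49.9 ± 33.7 CPM in CON against 29.1 ± 8.55 CPM in VTM (SD, n = 6 each) and was not past the threshold, at a log2 fold change of -0.78. Among 27 genes of mtDNA transcription, RNA turnover and maintenance, PNPT1, which encodes the mitochondrial polynucleotide phosphorylase that degrades RNA, was the sole named gene. It was past the threshold in the other direction, where 0.864% of genes tested were, at 0.55 (standard error 0.18), with a mean of 21.7 ± 5.17 CPM in CON against 31.9 ± 6.21 CPM in VTM (SD, n = 6 each). Its level was 14.99 CPM in CON calf 25, the lowest of the 14, 20.3 CPM in CON calf 31 and 29.9 CPM in CON calf 19. Over all 14 calves it was not past the threshold.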

How the data were processed

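Per the labels, strand-specific libraries from polyadenylated liver RNA were sequenced as read pairs. The authors filtered the reads, aligned them with STAR 2.7.5 to the ARS-UCD1.2 assembly, counted reads on the genes of Ensembl release 109 and deposited these raw counts, with no normalization and no gene filter. The strand column is not given in the sources used here. Groups are those of the sample titles, each calf is 1 replicate, and names came from the study's supplementary tables. The members and lists were chosen with earlier results of these data known.

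All genes kept by filterByExpr (13307 over 12 calves) were tested with edgeR 4.0.16 (TMM, quasi-likelihood test, diet as the only term) in R 4.3.3, and with DESeq2 1.42.0 as an alternative. Log2 CPM used a prior count of 2. Gene lengths came from RefSeq, whose build differs, so that no coordinates are given. Within-calf ratios were tested with exact sign flips. The fit was tested on simulated data. Named genes are the 7 members, the 5 genes most like them, and list members past the threshold or most abundant. Alternatives were DESeq2, RLE size factors, no gene filter, all 14 calves, library sizes without mtDNA genes, effective lengths and each calf left out in turn. Sequences and strand checks were not analysed here.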

Additional observations from a re-analysis of the deposited data

Results flagged for a closer look

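Single calves far from the rest of their group were found in 9 of 32 sets of 7 calves, by the gap to the nearest calf as a share of the range. A chance rate of about 1 in 20 assumes normally distributed values, whereas CPM were used here with no log. The sets also share calves, so the count cannot be set against that rate. CON calf 31 was far above the next CON calf in ND1 (11090 CPM against 4911), ND2 (6192 against 2525), ND3 (6351 against 1833), ND4 (12937 against 5220) and ND4L (454 against 159), and in the summed level of the 7 genes (42858 against 18459). ND5 and ND6 in that calf were not set apart in this way. CON calf 19 was far above the other CON calves in the share of ND2 in the per-length total (17.9% against 14.1%) and in that of ND6 (6.99% against 2.92%). VTM calf 16 was above the other VTM calves in ND2 (995 CPM against 713).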

How the results depend on the processing

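No paired analysis was possible because the calf numbers of the diets are not shared. DESeq2, RLE size factors, no gene filter, all 14 calves and library sizes without mtDNA genes left the median log2 fold change of the 7 genes between -1.58 and -1.53, and single calves left out between -1.76 and -0.64. Without CON calves 25 and 31 (chosen after seeing the data) the median was 0.0256, with ND2 at 0.0921, ND4 at 0.107, ND4L at 0.0834 and ND5 at 0.0256. The number of nuclear subunits past the threshold, 5, was 1 over all 14 calves, 0 without CON calves 25 and 31, and 0 to 7 without single calves. The log2 ratio of ND3 to ND1 was 0.30 over the 12 calves, past the test's threshold, and 0.14 to 0.29 without single calves. That of ND4L to ND6 was 0.37 to 0.62.

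Over all 14 calves r was 0.77 for ND6 against the heavy-strand genes, 0.98 for these against the other mtDNA protein genes, -0.37 for the ND6 ratio against the heavy-strand level and 0.68 for mtDNA against nuclear subunits. Without CON calves 19, 25 and 31 (also chosen after seeing the data) the first was -0.20 and the third -0.93. Without the 2 calves farthest from the median they were 0.67, no longer past the threshold, and 0.15, and the fourth was -0.32. Over the 12 calves the third was -0.69 and the fourth 0.97, and with no TMM the fourth was 0.54. Without single calves the first was 0.71 to 0.87, the third -0.68 to 0.16, reversed without CON calf 31, and the fourth 0.38 to 0.97. The cause of these changes was not tested. Depth limits ND4L and ND6 most, with 220 and 630 counts in their lowest calves. No adjusted p over all genes was below 0.791 with edgeR or 0.0844 with DESeq2 over the 12 calves.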
